A study of Mus musculus with 15 samples.

Results

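The difference of the salt effects between the genotypes asks, gene by gene, whether a high salt diet moved liver transcripts differently in mice labelled Sirt3 knockout than in wild-type mice. It is the interaction of diet and genotype, the log2 fold change from normal to high salt in the labelled knockouts minus that in the wild type. It was computed from 12 of the 15 libraries of the series, those whose titles give both a diet and a genotype, in 4 groups of 3. Livers came from male C57BL/6 mice, 6 months old by their labels, that were 6 weeks old at the start. Wild-type mice on the normal salt diet of 0.4% NaCl form WT NSD, wild-type mice on the high salt diet of 8% NaCl form WT HSD, and the same diets in mice labelled SIRT3 knockout give KO NSD and KO HSD. The sources used here do not give the knockout allele, the cells in which it acts, or the time of day at which the livers were taken. The labels give 4 months of diet in the protocol and 8 weeks in the characteristics. The other 3 libraries carry no genotype in their titles and were not used, except in an alternative fit.

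SIRT3 is the main protein deacetylase of the mitochondrial matrix and removes acetyl groups from enzymes of fatty acid oxidation, the respiratory chain and antioxidant defence, so its direct targets are proteins and not transcripts. The liver is made mostly of hepatocytes, which secrete plasma proteins and release glucose between meals, with resident macrophages called Kupffer cells, sinusoidal endothelial cells and stellate cells beside them. Hepatocyte transcripts also follow the time of day through the circadian clock, feeding through insulin, and sex through the pattern of growth hormone release.

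The libraries held between 15726897 (WT NSD 3) and 19539406 (KO NSD 2) expected counts. The hepatocyte genes Alb, Apoa1, Ttr and Serpina1a were abundant in every library, with a median of 47595 FPKM (fragments scaled by gene length and library total) for Alb. Sirt3 (Entrez ID 64384, GRCm38 chr7:140863663-140882309) was present in all 4 groups, and the mice are called labelled knockouts throughout, since a count over the whole gene does not show an allele that lacks some exons. In CPM (counts scaled to a common library total), Sirt3 stood at 48.9, 51.8 and 52.2 in WT NSD, at 82.3, 64.6 and 64.8 in WT HSD, at 64.1, 42.6 and 43.1 in KO NSD and at 61.4, 67.5 and 55.7 in KO HSD. The wild-type diet groups did not overlap, with WT HSD higher, while KO NSD 1 lay within the range of KO HSD. The interaction of Sirt3 was -0.17 ± 0.26 (log2, SE; 95% interval -0.72 to 0.39), which did not pass the test (edgeR, Benjamini-Hochberg adjusted p = 1). Without KO NSD 1 it was 0.09. KO NSD 1 and KO NSD 3, although labelled male, nearly lacked transcripts of the Y chromosome, with 4 and 0 counts of the helicase gene Ddx3y. WT NSD 3 and WT HSD 3, a library of each diet, lay together and apart from the rest on the second principal component, which held 17.8% of the variance.

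No gene passed the test of the interaction. Of 13051 genes tested with edgeR's quasi-likelihood test, 0 passed a Benjamini-Hochberg adjusted threshold of 0.05 (0.00%), and the lowest adjusted value was 0.835. Without adjustment 706 genes (5.41%) had p under 0.05, of which 266 had a positive interaction (2.04%) and 440 a negative one (3.37%). A positive value means that high salt went with more transcript, or with less of a decrease, in the labelled knockouts than in the wild type. limma-voom called 0 genes as well, with 678 at an unadjusted p under 0.05 and a smallest adjusted p of 0.883. DESeq2 called 10 (0.0767% of 13042), most of which are named below. No label states that each library is a different animal, so the p-values reflect the variation among these libraries alone, part of which may be technical. The Ddx3y counts of 4, 571 and 0 within KO NSD are not those of repeats of a single animal.

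The precision of a single gene was low. The median SE of the interaction was 0.355 on the log2 scale, with a middle range of 0.27 to 0.514 over genes, and the 95% interval of the median gene reached 0.77 to either side of its value. The biological coefficient of variation was 0.272. The values themselves spread widely, since 1203 genes lay beyond 1 in either direction, with a 5th percentile of -1.09, a 95th of 0.80 and a median of -0.02. A difference smaller than the interval of a gene was therefore not detectable with 3 libraries in each group, and the missing calls do not show that the genotypes responded alike. Across genes the salt effect of the labelled knockouts and that of the wild type had a Pearson correlation of -0.05, given as a description, since genes are not independent replicates and depth and base composition are shared.

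**Figure D1:**
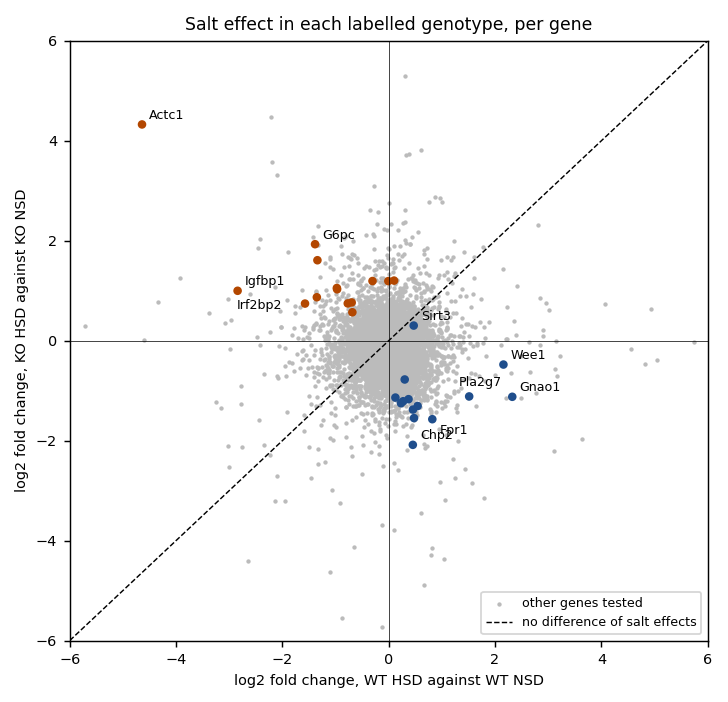
Each point is a gene, with its log2 fold change on high salt in the wild type (x axis) and in the labelled knockouts (y axis); the vertical distance from the dashed diagonal is the interaction, and 7 genes lie outside the axes. Orange and blue mark genes of positive and negative interaction among the 24 leading genes together with Sirt3, G6pc, Igfbp1 and Wee1; most orange points lie at the upper left and most blue ones at the lower right, where the salt effects have opposite signs.

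**Figure D2:**
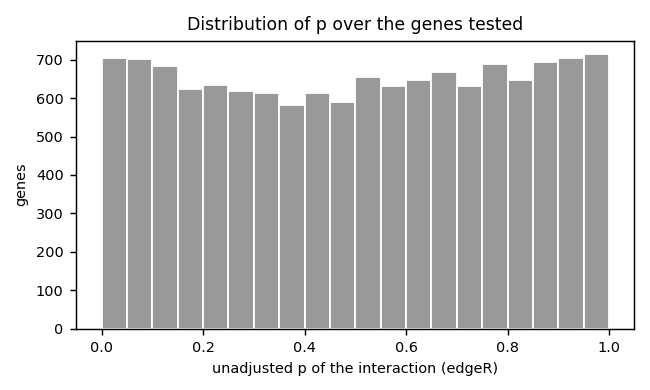
The histogram gives the number of genes (y axis) in each interval of the unadjusted edgeR p of the interaction (x axis). The lowest interval held 706 genes, the others 581 to 714, so the distribution was nearly flat.

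KO NSD was the group that most often stood outside the other 9 libraries. All 3 KO NSD libraries lay above every other library for 247 genes (1.89% of those tested) and below for 205 (1.57%). WT NSD lay above for 106 genes (0.812%) and below for 87 (0.667%). The high salt groups stood apart less often, WT HSD for 39 genes above and 65 below (0.299% and 0.498%) and KO HSD for 27 above and 45 below (0.207% and 0.345%). Among the 706 genes with an unadjusted p under 0.05 (edgeR), KO NSD was apart for 147 (20.8%), WT NSD for 84 (11.9%), KO HSD for 22 (3.12%) and WT HSD for 15 (2.12%). Over all genes tested these shares were 3.46%, 1.48%, 0.552% and 0.797%. The counts among the 706 add no support, since the p and the standing apart come from the same values. Over all genes tested, the group that stood apart was most often a normal salt group.

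The 12 genes with the smallest p among positive interactions were Atg16l2, Irf2bp2, Actc1, Fst, C8a, Zfp839, Rnf125, Arhgap26, Zfand4, Gm45978, Wdfy1 and Mapk15, each with an adjusted p of 0.835 (edgeR). All 3 KO NSD libraries lay below all others for 5 of them, and all 3 WT NSD libraries above all others for 4. Atg16l2 (chr7:101286325-101302267), a relative of the autophagy protein ATG16L1, stood at 31.1, 20.6 and 14.3 CPM in WT NSD and 9.93, 11.1 and 12.5 in WT HSD, against 5.81, 8.86 and 5.24 in KO NSD and 11.9, 12.5 and 16.9 in KO HSD. The diet groups overlapped in neither genotype, with high salt lower in the wild type and higher in the labelled knockouts. Its interaction was 2.03 ± 0.40 (SE).

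Irf2bp2 (chr8:126588296-126593986), a corepressor that works with IRF2, stood at 71.2, 64.7 and 66.4 CPM in WT NSD and 17.1, 20.1 and 30.6 in WT HSD. In the labelled knockouts it stood at 20.1, 22.2 and 53.0 CPM on normal salt and 58.9, 42.8 and 57.8 on high salt. The wild-type groups lay far apart, and the labelled knockouts overlapped through KO NSD 3. The interaction was 2.32 ± 0.47, and without KO NSD 3 it was 2.93 with an adjusted p of 0.023 (edgeR). Over its 23 alternatives the adjusted p ran from 0.0172 (DESeq2) to 1.

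Rnf125 (chr18:20944615-20987359), a ubiquitin ligase that acts on the RNA sensor RIG-I, stood at 457, 459 and 262 CPM in WT NSD, 107, 102 and 252 in WT HSD, 68.9, 57.2 and 70.8 in KO NSD, and 173, 80.5 and 106 in KO HSD. The diet groups did not overlap in either genotype, although WT NSD 3 and WT HSD 3 lay close to each other. The interaction was 2.22 ± 0.53. Mapk15, an atypical MAP kinase gene, had the same order of groups at 26.4 to 42.5 CPM in WT NSD, 13.0 to 22.6 in WT HSD, 3.80 to 5.17 in KO NSD and 5.73 to 15.6 in KO HSD, with an interaction of 2.00 ± 0.50. The members of this pair had their lowest values in KO NSD and their highest in WT NSD.

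Fst encodes follistatin, a secreted protein that binds activins. It stood at 4.15, 3.63 and 7.32 CPM in WT NSD and 0.743, 2.14 and 3.03 in WT HSD, and at 1.62, 2.49 and 2.12 in KO NSD and 6.15, 3.69 and 9.17 in KO HSD. The groups were apart in opposite directions, and the interaction was 2.95 ± 0.66. C8a (chr4:104815679-104876487), which encodes a chain of the complement membrane attack complex, differed in a single group, at 284, 439 and 298 CPM in KO NSD against 599 to 841 in the other 9 libraries. Its interaction was 1.199 ± 0.28, and C8a is also a member of the male-biased list described below. Wdfy1, whose protein binds endosomal lipids, was the gene of the 12 for which KO HSD stood apart, at 27.1, 17.4 and 22.9 CPM against 8.92 to 14.6 elsewhere, with an interaction of 1.10 ± 0.28. Actc1, a muscle actin gene, was near its detection limit, at 0.898 to 2.30 CPM in WT NSD and at most 0.0562 in WT HSD, with 0 in KO NSD 1, KO NSD 2 and KO HSD 2, so that its fitted value depends on the prior count and is not given.

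**Figure D3:**
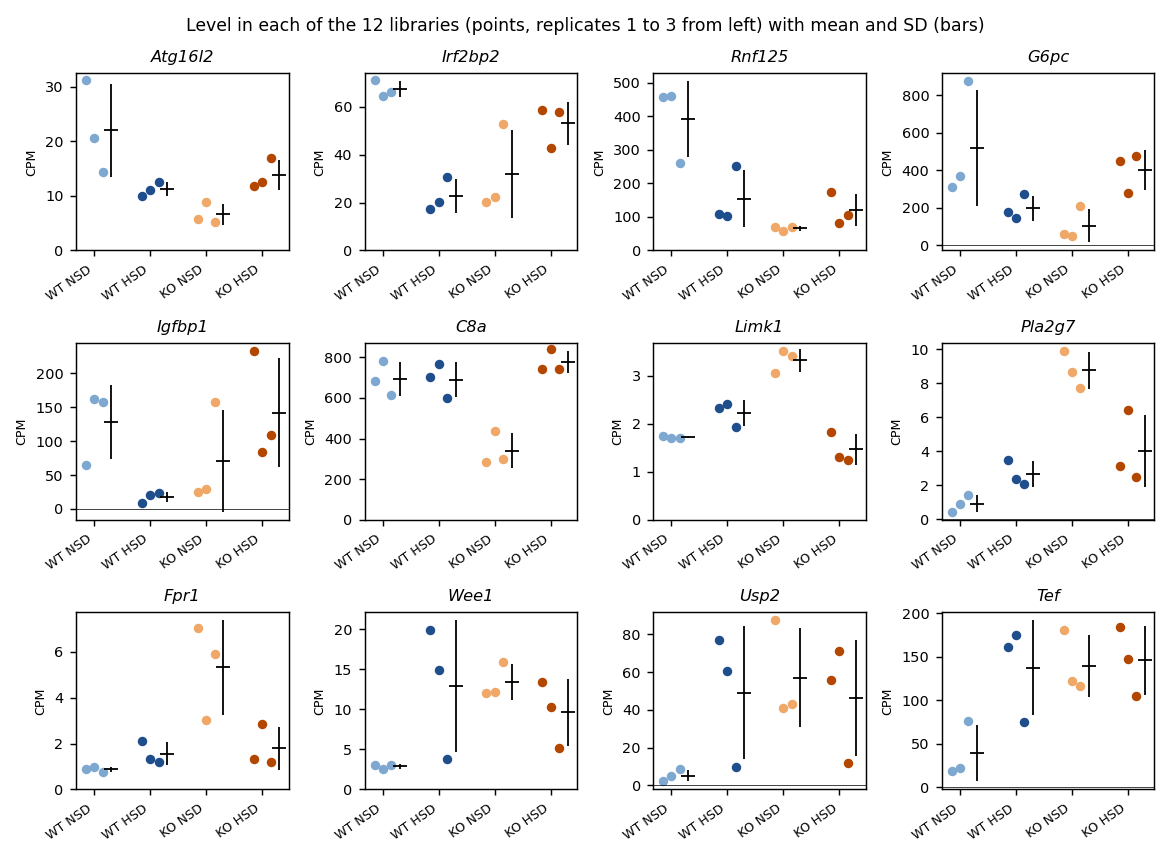
Each panel gives a gene's level in CPM (y axis, from 0) in the 12 libraries, grouped by genotype and diet (x axis), with the mean and SD of 3 libraries beside the points. Atg16l2, Irf2bp2, Rnf125, G6pc and Igfbp1 are highest in WT NSD or KO HSD, Limk1, Pla2g7 and Fpr1 are highest in KO NSD, and Wee1, Usp2 and Tef are lowest on average in WT NSD.

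The 12 genes with the smallest p among negative interactions included Pla2g7, Limk1, Fpr1, Ly9, Kcnj8, Ecm1, Rerg, Slc27a1, Chp2, Ifitm1 and Gnao1, also with an adjusted p of 0.835 each (edgeR). KO NSD lay above all other libraries for 9 of the 12 and WT NSD below all others for 4. Pla2g7 (chr17:43567994-43612202), which encodes the platelet-activating factor acetylhydrolase made by macrophages, stood at 0.449, 0.908 and 1.42 CPM in WT NSD and 3.50, 2.36 and 2.07 in WT HSD. In the labelled knockouts it stood at 9.89, 8.65 and 7.69 CPM on normal salt and 3.15, 6.44 and 2.51 on high salt. High salt was above normal salt in the wild type and below it in the labelled knockouts, with no overlap in either, and the interaction was -2.63 ± 0.58. Fpr1, the formyl peptide receptor of neutrophils and macrophages, had the same order, at 0.898, 0.965 and 0.767 CPM in WT NSD, 2.12, 1.35 and 1.19 in WT HSD, 7.04, 3.03 and 5.92 in KO NSD and 1.31, 2.86 and 1.2003 in KO HSD. Its interaction was -2.39 ± 0.59. Ly9, a receptor of the SLAM family on leukocytes, and Limk1, a kinase of cofilin, also had groups that were apart in opposite directions, with interactions of -2.02 ± 0.50 and -1.54 ± 0.34. Ecm1, a secreted matrix protein gene, stood at 165, 118 and 190.0 CPM in KO NSD and 48.1, 77.8 and 72.6 in KO HSD, while the wild-type diet groups overlapped (73.3 to 142 and 117 to 137). Its interaction was -1.48 ± 0.37.

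DESeq2, the test that made calls with all 12 libraries, took 7 genes as positive and 3 as negative. The positive ones were Irf2bp2 (adjusted p = 0.0172), Atg16l2 (0.0172), Actc1 (0.0172), Fst (0.0269), Rnf125 (0.036), C8a (0.0382) and Gm14434 (0.0382). The negative ones included Pla2g7 (0.0292) and Cyp3a41a (0.032). For Irf2bp2 the log2 value was 2.33 by DESeq2 and 2.32 by edgeR, and the adjusted p of each of these genes reached 1 in other alternatives. Gm14434 was at 0 in 7 of 12 libraries and at 7.62 to 11.1 CPM in the rest, spread over 3 groups. Its reads may be shared with near-identical genes, so its value is uncertain.

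Opposite and non-overlapping salt effects were rare. For 44 genes (0.337%) the 3 high salt libraries lay entirely on one side of the 3 normal salt libraries in the wild type and entirely on the other side in the labelled knockouts. In 22 of them high salt was higher in the labelled knockouts and in 22 lower. Of the 44, 40 had an unadjusted p under 0.05 (edgeR), which adds no support, since the same values chose the genes. The leading genes held 6 positive and 5 negative members of this set. Within a genotype, an exact permutation test of 3 libraries against 3 cannot give a p below 0.1. The share of 0.337% was not compared with that expected from a random order of the libraries. The lack of overlap given for single genes is therefore a description only.

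Markers of macrophages had mostly negative interactions. Of 16 Kupffer cell and macrophage genes tested, 15 were below 0 (52.7% of all genes were). An unadjusted p under 0.05 (edgeR) was found for 8 of them (5.41% of all genes had one). After adjustment 0 passed, and the median was -1.42 against -0.02 over all genes. Vsig4, a complement receptor of Kupffer cells, stood at 6.56, 12.3 and 7.79 CPM in WT NSD, 22.2, 11.3 and 11.9 in WT HSD, 60.7, 16.3 and 43.0 in KO NSD, and 11.1, 25.1 and 10.0 in KO HSD. KO NSD 1 and KO NSD 3 were high, KO NSD 2 lay within the range of the other groups, and the diet groups overlapped in the labelled knockouts. The interaction of Vsig4 was -2.15 ± 0.71, and with KO NSD 2 as the only KO NSD library it was -0.84. Summed over the list, the level was 1180 and 829 CPM in KO NSD 1 and KO NSD 3, 391 in KO NSD 2 and 201 to 585 in the other 9 libraries. With KO NSD 2 as the only KO NSD library the median of the list was -0.42. The Kupffer cell markers Clec4f, Vsig4, Timd4 and Cd5l were detected in all libraries. In bulk liver, fewer cells of a type and less RNA in each cell cannot be told apart.

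The medians of the other lists of non-hepatocyte cells, apart from the single gene of the pancreas and muscle list, and of MHC class II genes also lay below 0. Without KO NSD 1 and KO NSD 3 they came closer to 0 or changed sign, except for the adipocyte list. Of 15 neutrophil genes 14 were negative (median -1.16, and -0.17 without those libraries), of 9 sinusoidal endothelial genes 9 (-0.91 and -0.29), of 7 B and plasma cell genes 7 (-0.99 and -0.49) and of 11 stellate cell and matrix genes 10 (-0.66 and 0.26). All 8 genes of MHC class II presentation were negative (-0.90), and the median was 0.30 without those libraries. Their summed level was 400.3 and 369.8 CPM in KO NSD 1 and KO NSD 3, 124 in KO NSD 2 and 108 to 277 elsewhere. The neutrophil sum was 266, 98.5 and 151 CPM in KO NSD and 15.0 to 78.5 elsewhere, so all 3 KO NSD libraries lay above the other groups there. Among single genes, Itgam, an integrin chain of myeloid cells, stood at 5.71, 3.30 and 5.00 CPM in KO NSD and at 0.78 to 2.42 elsewhere (interaction -1.44 ± 0.43). Dcn, the matrix proteoglycan decorin, was lowest in KO HSD at 59.3, 78.3 and 75.6 CPM, below all 9 other libraries (-1.04 ± 0.34). Of 11 T and NK cell genes 6 were negative (median -0.18, and 0.50 without those libraries), of 5 cholangiocyte genes 3 (-0.17 and -0.04), of 5 erythroid genes 4 (-0.91 and -0.69) and of 3 adipocyte genes 2 (-1.20 and -1.77), and a single gene of the pancreas and muscle list was tested (1.72). The hepatocyte list had a median of 0.12 over 4 genes.

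**Figure D4:**
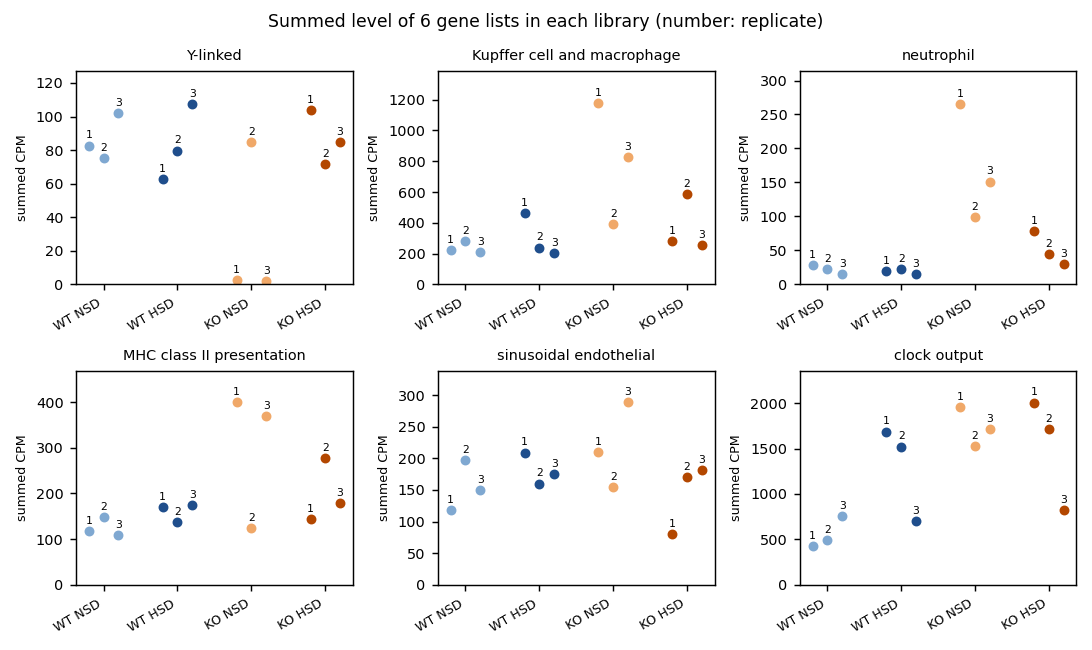
Each panel gives the summed level of a gene list in CPM (y axis, from 0) for every library, with the replicate number beside each point. KO NSD 1 and KO NSD 3 are near 0 for Y-linked genes and highest for the macrophage and MHC class II lists, KO NSD is highest for neutrophil genes, and WT NSD 1 and WT NSD 2 are lowest for clock output.

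Genes that differ between male and female liver had the medians farthest from 0 of the 41 lists, and these depended on KO NSD 1 and KO NSD 3. Of 28 male-biased genes 26 were positive (47.3% of all genes were), with a median of 1.80, and of 25 female-biased genes 23 were negative, with a median of -2.04. With KO NSD 2 as the only KO NSD library the medians were 0.66 and 0.46, and without KO NSD 2 they were 3.99 and -4.02. The female-biased median was -5.91 without KO HSD 1. Cyp3a41a, a P450 gene of female liver, had 1780.4 and 1360.4 CPM in KO NSD 1 and KO NSD 3, 0 in KO NSD 2 and at most 0.683 in the 9 libraries outside KO NSD. Its fitted interaction had an SE of 3.95 and changed sign without KO NSD 1 and KO NSD 3. The 4 Y-linked genes had interactions of 1.52 to 1.74 with SEs of 0.81 to 1.88, and without KO NSD 2 all of them passed the test, at 3.14 to 8.41 (edgeR, adjusted p of 0.000111 to 0.00853). The summed female-biased level was 6118, 5958 and 7292 CPM in KO NSD and 211 to 1569 in the other 9 libraries, so KO NSD 2 was high there too. The summed male-biased level was 1295 and 2040 CPM in KO NSD 1 and KO NSD 3, 32360 in KO NSD 2 and 4802 to 89160 elsewhere. Diet and the make-up of KO NSD cannot be told apart in these values.

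Elovl3, a fatty acid elongase gene of the male list, was higher in WT NSD than in all other libraries, at 534, 802 and 175 CPM, against 135, 29.0 and 163 in WT HSD. The labelled knockouts had 0.443, 4.48 and 1.06 CPM on normal salt and 2.89, 19.7 and 109 on high salt. KO NSD 2 was thus low for Elovl3 as well, and the interaction was 6.68 ± 1.90. Bcl6, a repressor that keeps the male pattern, stood at 15.5, 17.6 and 20.0 CPM in KO NSD and at 34.8 or more in KO HSD, while WT HSD held 11.997 to 80.3, for an interaction of 2.26 ± 0.82. Of 15 genes of the growth hormone and STAT5 axis 5 had an unadjusted edgeR p under 0.05 (5.41% of all genes did), 3 positive and 2 negative. The median over the list was -0.31. Stat5a and Stat5b, the transcription factors downstream of the growth hormone receptor, had interactions of 1.16 ± 0.31 and 0.93 ± 0.31. The 2 negative ones were Cux2 (-4.96 ± 1.87) and Igfbp3 (-1.26 ± 0.42). Cux2 stood at 74.0, 3.78 and 8.27 CPM in KO NSD, so its value leaned on KO NSD 1. Bcl6 and Cux2 are also members of the male-biased and female-biased lists, so these lists are not separate.

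Most clock output genes had negative interactions. Their summed level was 429, 489 and 751 CPM in WT NSD, 1685, 1521 and 699 in WT HSD, 1527 to 1955 in KO NSD and 823 to 2005 in KO HSD, so that WT NSD 1 and WT NSD 2 were lowest and the labelled knockouts overlapped. Of 11 genes controlled by the circadian clock, 9 were negative, with a median of -0.82. An unadjusted p under 0.05 (edgeR) was found for 5 of the 11 (5.41% of all genes had one). Wee1, a cell cycle kinase under clock control, stood at 3.09, 2.50 and 3.07 CPM in WT NSD, 20.0, 15.0 and 3.81 in WT HSD, 12.1, 12.2 and 16.0 in KO NSD and 13.5, 10.3 and 5.13 in KO HSD. WT NSD lay below all other libraries, WT HSD 3 was close to it, and the labelled knockouts overlapped. The interaction was -2.64 ± 0.70. Usp2, a deubiquitinase gene, was also lowest in WT NSD, at 2.41, 4.77 and 8.62 CPM against 9.92 or more elsewhere, with an interaction of -3.52 ± 1.18. Alas1, the first enzyme of haem synthesis, stood at 127 to 149 CPM in WT NSD and at 602, 449.9 and 142 in WT HSD, so that WT HSD 3 lay within the range of WT NSD, and its interaction was -2.20 ± 0.65.

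Dbp and Tef encode related factors that bind clock-controlled promoters. Dbp was at 1.29 and 0.851 CPM in WT NSD 1 and WT NSD 2 and at 17.9 in WT NSD 3, against 233, 224 and 12.3 in WT HSD, 40.4 to 250.3 in KO NSD and 97.9 to 123 in KO HSD. Tef was at 18.6, 22.3 and 75.9 CPM in WT NSD, 162, 175 and 74.7 in WT HSD, 116 to 181 in KO NSD and 105 to 184 in KO HSD. WT NSD 3 and WT HSD 3 lay close to each other for both genes, and the other wild-type libraries were far apart. Nfil3, which competes with these factors, and Npas2, a partner of the clock activator BMAL1, had the opposite order, with Npas2 at 14.1 and 13.5 CPM in WT NSD 1 and WT NSD 2, 1.53 in WT NSD 3 and 3.12 in WT HSD 3, and at most 0.327 in the other 8 libraries. The interactions were -4.71 ± 1.84 for Dbp, -1.76 ± 0.71 for Tef, 1.82 ± 0.57 for Nfil3 and 3.43 ± 2.07 for Npas2. Without WT NSD 3 and WT HSD 3, a choice made after seeing the data, 6 genes passed the test, namely Ppard, Npas2, Ypel2, Rnf125 and Nfil3 (positive) and Tef (negative), with edgeR adjusted p-values of 0.018 to 0.0303. Under the other alternatives Tef reached an adjusted p of 1. Over the 17 core clock genes the median was -0.33, with 6 positive and 11 negative. It was -0.79 without WT NSD 3 and WT HSD 3 and 0.04 with KO NSD 2 alone, while that of clock output was -1.42 and -0.50.

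The promoters of Tef are shown because Tef passed in that comparison, as the single one of its 6 genes with a negative interaction, and because its best known control is by BMAL1 and its partner at the E-box CACGTG, which reads the same on either strand. RefSeq on GRCm38.p6 gives Tef 2 starts, and the 250 bases before to 50 after each start hold 1 match each, in capitals. Such a match occurs in 7.15% of 32851 promoters of the same length and describes the sequence only. The windows are chr15:81802423-81802722 and chr15:81811164-81811463, plus strand.
Tef first start: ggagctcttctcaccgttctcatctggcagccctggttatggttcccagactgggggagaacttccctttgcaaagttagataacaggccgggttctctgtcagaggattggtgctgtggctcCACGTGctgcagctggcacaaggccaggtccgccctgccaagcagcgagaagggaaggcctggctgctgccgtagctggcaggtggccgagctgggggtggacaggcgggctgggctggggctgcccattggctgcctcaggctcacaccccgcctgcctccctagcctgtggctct
Tef second start: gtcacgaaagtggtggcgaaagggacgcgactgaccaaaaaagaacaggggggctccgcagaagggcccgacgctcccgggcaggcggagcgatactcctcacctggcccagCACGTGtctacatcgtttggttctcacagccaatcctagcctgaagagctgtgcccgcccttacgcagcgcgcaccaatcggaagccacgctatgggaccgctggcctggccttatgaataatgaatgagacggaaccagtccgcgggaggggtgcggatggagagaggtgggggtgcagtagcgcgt

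G6pc and Igfbp1, genes that insulin represses and fasting raises, had positive interactions. G6pc (chr11:101367716-101377903), which encodes the enzyme that releases glucose from its phosphate, stood at 309.5, 370.2 and 875 CPM in WT NSD and 176, 145 and 273 in WT HSD. In the labelled knockouts it stood at 58.7, 48.4 and 208 CPM on normal salt and 451, 277 and 474 on high salt. High salt was below normal salt in the wild type and above it in the labelled knockouts, with no overlap in either. The interaction was 3.32 ± 0.81 (95% interval 1.53 to 5.10; edgeR adjusted p = 0.835). Igfbp1 (chr11:7197787-7202546), a secreted protein that binds insulin-like growth factors, stood at 65.0, 162 and 157 CPM in WT NSD and 9.13, 20.9 and 23.5 in WT HSD, and at 25.0, 29.99 and 158 in KO NSD and 233, 83.6 and 109 in KO HSD. WT HSD lay below all other libraries, and the labelled knockouts overlapped through KO NSD 3. Its interaction was 3.84 ± 1.06. Over all 16 genes of gluconeogenesis and fasting 11 were positive and 2 had an unadjusted edgeR p under 0.05 (5.41% of all genes did). The median was 0.59, and it was 0.28 without WT NSD 3 and WT HSD 3. Pck1, the enzyme that starts gluconeogenesis from oxaloacetate, had an interaction of 1.35 ± 0.84, with WT NSD 1 at 311 CPM and the other wild-type normal salt libraries at 1561 and 1898.

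The G6pc and Igfbp1 promoters are shown because these 2 genes lead the list and because FOXO factors, which insulin inactivates, are known to act on them through TGTTTTG and its complement CAAAACA. Each RefSeq window (GRCm38.p6, plus strand, 250 bases before to 50 after the start, chr11:101367466-101367765 and chr11:7197537-7197836) holds 1 match on either strand, in capitals, as do 6.283% of the 32851 promoters. The match describes the sequence only.
G6pc promoter: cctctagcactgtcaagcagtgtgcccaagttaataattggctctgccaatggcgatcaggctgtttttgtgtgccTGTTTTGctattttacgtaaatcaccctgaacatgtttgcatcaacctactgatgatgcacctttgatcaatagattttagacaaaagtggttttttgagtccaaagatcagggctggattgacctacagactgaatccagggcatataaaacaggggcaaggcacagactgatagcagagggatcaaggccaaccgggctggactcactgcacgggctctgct
Igfbp1 promoter: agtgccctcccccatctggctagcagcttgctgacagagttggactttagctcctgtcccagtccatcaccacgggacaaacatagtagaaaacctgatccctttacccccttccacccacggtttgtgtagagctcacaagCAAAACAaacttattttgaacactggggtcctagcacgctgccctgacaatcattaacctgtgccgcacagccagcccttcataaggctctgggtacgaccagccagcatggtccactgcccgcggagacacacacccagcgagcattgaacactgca

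Inflammatory lists did not share a direction. Of 22 acute phase genes, which hepatocytes secrete in inflammation, 18 were positive with a median of 0.61. An unadjusted p under 0.05 (edgeR) was found for 2 of the 22 (5.41% of all genes had one). Hp, the haemoglobin-binding protein haptoglobin, stood at 2561, 3226 and 5059 CPM in WT NSD, 1856, 2579 and 2101 in WT HSD, 5578, 5117 and 3437 in KO NSD, and 7144, 7998 and 3333 in KO HSD. The diet groups overlapped in both genotypes, and the interaction was 1.12 ± 0.48. Saa2, a serum amyloid gene, had 541 CPM in WT NSD 3 and 13.0 and 18.2 in the other WT NSD libraries, so that its interaction of 5.10 ± 2.22 was 1.52 without WT NSD 3. Of 30 interferon response genes 24 were positive with a median of 0.50, but the median was -0.14 without WT NSD 1, 0.27 without KO NSD 2 and 1.15 with KO NSD 2 as the only KO NSD library. Iigp1, an interferon-induced GTPase gene, had 0.79 ± 0.34. Of 20 inflammatory cytokines and NF-kB targets 14 were negative and 6 positive. An unadjusted p under 0.05 (edgeR) was found for 4 negative and 2 positive members (5.41% of all genes had one). Tnfaip2, an NF-kB target gene, was a positive one, at 0.96 ± 0.32. The median of the list was -0.39, which was -0.04 without KO NSD 1 and 0.10 without KO NSD 1 and KO NSD 3. Tnf stood at 1.08, 0.919 and 0.529 CPM in KO NSD, above all other libraries (0.0561 to 0.44), and Vcam1, an adhesion molecule gene, at 13.5, 5.78 and 11.97 in KO NSD against 3.27 to 5.67 in KO HSD. Their interactions were -2.61 ± 0.85 and -1.60 ± 0.46, and that of Tnf rested on 1 to 22 counts in each library.

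Transcripts of oxidative phosphorylation and of SIRT3's protein targets had interactions near 0. For 28 nuclear genes of oxidative phosphorylation the values ran from -0.20 to 0.19 with a median of -0.03, and 0 had an unadjusted edgeR p under 0.05 (5.41% of all genes did). For 21 genes whose proteins SIRT3 is known to deacetylate they ran from -0.64 to 0.37 with a median of -0.04, again with 0 under 0.05. Sod2, the mitochondrial superoxide dismutase, had 0.06 ± 0.20, and Idh2, which makes mitochondrial NADPH, had -0.61 ± 0.31. For the 7 sirtuins the values ran from -0.30 (Sirt2) to 0.30 (Sirt1), with a median of -0.12. Coenzyme Q synthesis had a median of -0.03 over 13 genes, with values from -1.25 ± 0.79 for Coq10b, a coenzyme Q binding protein gene, to 1.37 ± 0.37 for Coq8a, an atypical kinase. Coq10b had an unadjusted edgeR p of 0.142, while Coq8a and Pdss2 (0.58 ± 0.25), which encodes a subunit of the enzyme that makes the side chain, had unadjusted p-values under 0.05. Coq8a was at 615, 474 and 397 CPM in WT NSD, 218, 200.2 and 354 in WT HSD, 109.9, 154 and 177 in KO NSD and 195, 167 and 230.2 in KO HSD. WT NSD lay above all other libraries, and the labelled knockouts overlapped.

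Lipid genes leaned in opposite directions by pathway. Of 24 cholesterol synthesis genes 19 were positive (median 0.69), but the median was 0.12 with KO NSD 2 as the only KO NSD library, and KO NSD 2 held the highest summed level of all libraries (7643 CPM) while KO NSD 1 held the lowest (2471). Of 18 lipogenesis genes 14 were positive (0.35), and Mlxipl, which encodes the glucose-sensing factor ChREBP, stood at 257, 187 and 211 CPM in KO NSD, below the 280.3 to 469 of all other libraries (0.98 ± 0.29). Of 28 fatty acid oxidation and PPAR-alpha targets 22 were negative (-0.38), among them Vnn1, a pantetheinase gene, at -2.06 ± 0.61. For 18 genes of bile acid metabolism and transport the median was 0.12, with 0.75 ± 0.33 for Abcb11, the bile salt export pump, and a 95% interval of 0.37 to 2.03 for Nr0b2, the repressor SHP.

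Of 18 unfolded protein response genes 16 were negative (-0.53), but the median was -0.10 without KO NSD 2 and -1.01 with KO NSD 2 alone. Their summed level was 9066 CPM in KO NSD 2 against at most 4846 outside KO NSD. Hspa5, the main chaperone of the endoplasmic reticulum, stood at 287, 1635 and 774 CPM in KO NSD and 345 to 705 elsewhere. Of 16 proliferation genes 15 were negative (-1.07, -0.49 without WT HSD 1, and -0.25 with KO NSD 2 alone), and of 19 immediate early genes 13 were positive (0.85, 0.21 without KO HSD 3, and 1.78 with KO NSD 2 alone). Hmox1, the haem oxygenase of the antioxidant list (17 genes, median -0.08), had -1.66 ± 0.46. Aqp8, a water channel gene in the osmotic and renin-angiotensin list (14 genes, -0.01), stood at 240.0, 148 and 126 CPM in WT NSD and 32.1 to 81.9 elsewhere, for 1.28 ± 0.43. The medians were 0.24 for 13 glucocorticoid targets and metallothioneins, -0.17 for 14 heat shock genes, -0.11 for 19 genes of the urea cycle and amino acid catabolism, -0.14 for 21 xenobiotic enzymes, -0.31 for 14 pericentral WNT targets and -0.03 for 22 ribosomal proteins. In no list did a member pass after adjustment over all genes (edgeR).

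**Figure D5:**
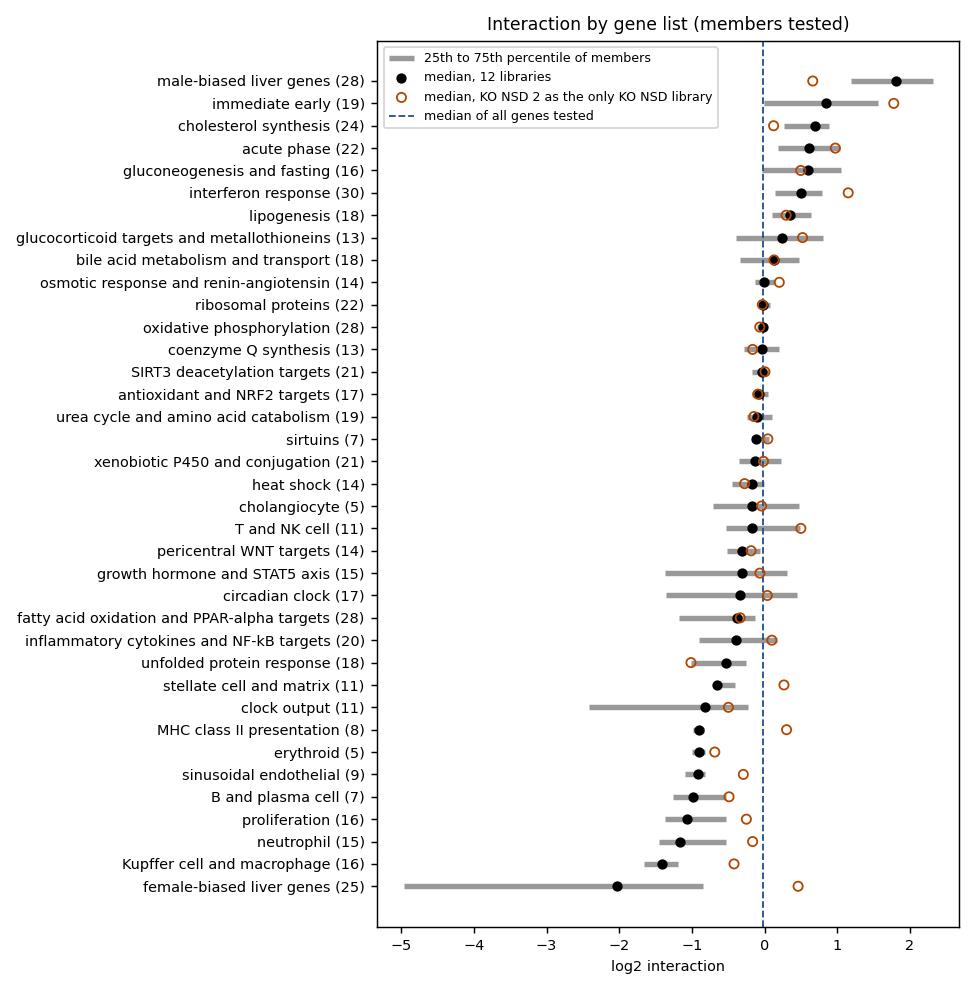
Each line is a gene list, with the number of members tested in brackets, the median log2 interaction (black, x axis), the middle range of the members (grey) and the median with KO NSD 2 as the only KO NSD library (orange); lists of under 5 genes are not drawn. Macrophage, neutrophil, endothelial and female-biased lists lie left of the all-gene median of -0.02 and move towards or past it in orange, while oxidative phosphorylation, SIRT3 target and ribosomal lists stay at it.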

How the data were processed

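RNA from mouse liver was purified on oligo(dT) beads and sequenced, per the labels' protocols. The authors deposited a table of expected counts per gene for all 15 libraries and FPKM values (scaled by gene length and library total, per the file headers) for each library. Alignment used Bowtie2 2.2.5 and counting RSEM 1.2.8 with genome mm10, as named in the submitters' processing notes. Annotation and strandedness are not given in the sources. RSEM divides reads between similar genes, so values of the Mup, Cyp2, Cyp3a, Cyp4a and Saa genes are uncertain, as are overlapping genes. Of 18131 genes 18009 matched RefSeq on GRCm38.p6, the source of coordinates and promoters.

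Expected counts were rounded and 12 libraries fitted with 4 group means in edgeR 4.0.16 (TMM, filterByExpr, robust quasi-likelihood, R 4.3.3). The interaction was adjusted by Benjamini-Hochberg over 13051 genes with a threshold of 0.05. SEs come from the same fit. Levels are CPM on TMM-scaled totals, and FPKM served for the levels of cell type markers. DESeq2 1.42.0, limma-voom 3.58.1, other scaling and filters, left-out libraries, a replicate block and a fit of all 15 libraries were alternatives, and the code was tested on simulated data. Every table column was mapped, leaving 0 out. No 2 libraries of a group agreed within sampling noise. The rule for naming took Sirt3, the 12 genes of smallest p in each direction, up to 3 members of each list with an unadjusted p under 0.05 (edgeR), and the Y-linked and sex-biased genes. The text gives only part of these list members and sex-linked or sex-biased genes. Pck1, Coq10b, Sod2, Idh2, Sirt1, Sirt2, Hspa5, Gm14434, Dbp, Tef, Npas2, Ppard, Ypel2, Gpnmb and Btg2 were named after their values were seen. The lists (41, of which 635 genes were in the table) and the comparison were chosen with earlier results of these data known. They are described by counts and medians, with no test. 1 of the leading genes is not reported here.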

Additional observations from a re-analysis of the deposited data

How the results depend on the processing

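The count of genes past an adjusted p of 0.05 was 0 under other scaling, both other filters, limma-voom, all 15 libraries, no robust option, and KO NSD 2 as the only KO NSD library. It was 10 with DESeq2, 0 to 8 when each library was left out in turn (8 without KO NSD 2, 4 without WT HSD 3, and 1 each without KO NSD 3, WT HSD 1 or WT NSD 3), and 6 without WT NSD 3 and WT HSD 3, added after seeing the data. The genes called without KO NSD 2 included the 4 Y-linked genes and Cyp3a41a, those without WT HSD 3 were Ypel2, Gpnmb, Nfil3 and Wee1, and the single ones were Irf2bp2, Btg2 and Ppard. The cause was not tested. With a replicate block the count was 0, with 701 genes at an unadjusted p under 0.05 and a smallest adjusted p of 0.0799. Over the 4 groups, same-numbered libraries correlated at -0.251 to 0.484 in their deviations from the group means. Libraries of different numbers were not compared in this way, so these values do not settle whether the numbers pair the libraries. The 3 wild-type pairs all exceeded 0.1 (0.108, 0.189 and 0.484) and the labelled knockout pairs did not all do so (-0.111 to 0.157). A replicate block in the wild type only, added after seeing the data, called 0 genes too, with 803 at an unadjusted p under 0.05. Genes that cross over in opposite directions numbered 44, against 74 to 196 with each library left out, 204 with KO NSD 2 alone and 276 without WT NSD 3 and WT HSD 3, where fewer libraries have to be apart. Of 2013 values of named genes under alternatives, 1983 kept their sign and side of the threshold, 27 newly passed and 3 changed sign: Sirt3 (-0.27 to 0.09 with each library left out) was 0.085 without KO NSD 1 and 0.078 with KO NSD 2 alone, and Cyp3a41a was 4.79 with KO NSD 2 alone. Of 943 list medians 56 moved by more than their spread. Library totals ran from 15726897 to 19539406, and the SE of the median gene was 0.355.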
